A study of Mus musculus with 4 samples.

Results

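The 39 genes described here run the cell division cycle. Out of 22096 gene symbols in the deposited tables, they were chosen by name as S phase, G1 to S and mitosis genes. Earlier results of these data were known when the list was chosen, so shares of the list describe it and do not test it. Of the 39, 13 form the S phase group (licensing of origins ahead of S phase, the replicative helicase, the sliding clamp and supply of deoxynucleotides). Another 6 regulate passage of G1 to S, and 20 act in G2 and mitosis. Their transcripts were measured by RNA sequencing of whole spinal cord of mice at postnatal day 8, in 2 cKO and 2 Ctrl libraries. The cKO mice had the genotype Chd7f/f; Olig1-cre, with floxed alleles of Chd7 only, and the Ctrl mice had Chd7f/+; Olig1-cre, with a floxed and an unfloxed allele. Both groups thus carried Cre recombinase driven from Olig1 and a floxed Chd7 allele, on a mixed strain background. Olig1 is active mainly in the oligodendrocyte lineage, so the deletion reaches only some of the cells in a whole cord. CHD7 is a chromatin remodeler, and the title of the series names its work with Sox10 in the timing of myelination.

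Cells that divide copy their DNA once in S phase and separate it in mitosis. In G1, cyclin D with Cdk4 and cyclin E with Cdk2 release E2F transcription factors from the retinoblastoma protein, and E2F drives genes of DNA replication. Genes of mitosis are switched on later, in G2, through promoters bound by NF-Y, B-Myb and FoxM1. In the early postnatal cord, oligodendrocyte precursors are a main dividing population, beside astrocytes, microglia, endothelial and meningeal cells. Neurons and myelinating oligodendrocytes do not divide.

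The labels give no word on whether the libraries of a genotype stem from separate animals, so the p-values measure only the spread between these libraries. Relative sequencing depth, taken from the ratio of deposited coverage to FPKM, was 2.22 and 3.19 in cKO 1 and cKO 2, and 2.07 and 1 in Ctrl 1 and Ctrl 2. Libraries also stood apart in sex-linked genes, by which cKO 1 and cKO 2 are not repeats of the same sample, while Ctrl 1 and Ctrl 2 were alike. The Y-linked gene Ddx3y was at 0.195 and 11.6 FPKM in cKO 1 and cKO 2, against 0.144 and 0.0720 FPKM in Ctrl 1 and Ctrl 2, and Xist was at 19.6 and 0.233 FPKM in the cKO libraries, against 55.6 and 51.8 FPKM in the Ctrl libraries. Chd7 itself was at 2.52 and 3.38 FPKM in cKO 1 and cKO 2, against 3.52 and 3.12 FPKM in Ctrl 1 and Ctrl 2, so the groups overlapped (log2 fold change -0.13 ± 0.16 SE, limma adjusted p = 0.657). The floxed part of Chd7 is not given in the labels, and the value checks the genotypes little.

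Promoter letters of these genes were counted by role, and 10 stretches are printed, those that follow the counts and those that do not. RefSeq promoter windows on GRCm38.p6, from 250 bases before to 50 bases after the start, matched 31 of the 39 genes by symbol. E2F letters were searched as TTTCCCGC, TTTGGCGC, TTTCGCGC and TTTGCCGC, the NF-Y box as CCAAT and the cell cycle homology region (CHR) as TTTGAA, on both strands, and the last bases of an E2F match can also begin one on the opposite strand. E2F letters were in 6 of 12 windows of S phase genes and in 1 of 16 windows of mitosis genes, against 2.26% of all 32851 windows. CHR letters showed the opposite split, in 1 of 12 S phase windows and 12 of 16 mitosis windows, against 17.9% of all windows. CCAAT was in 9 of 12 S phase and 15 of 16 mitosis windows, against 37.4% of all windows. These matches describe the letters and do not show binding. The 150 bases before the start are given for the S phase genes that rose in cKO cords (Mcm6, Rrm2 and Cdt1), for Mcm2, Mcm3 and Mcm5, which did not pass the test, and for the mitosis genes Cdk1, Cdc20, Ube2c and Plk1, with matches to the searched letters in capitals.
Mcm6, chr1:128359706-128359855, minus strand: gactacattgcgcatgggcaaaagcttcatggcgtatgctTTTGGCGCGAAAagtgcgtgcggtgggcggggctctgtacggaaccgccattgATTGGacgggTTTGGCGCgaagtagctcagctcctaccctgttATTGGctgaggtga
Rrm2, chr12:24708104-24708253, plus strand: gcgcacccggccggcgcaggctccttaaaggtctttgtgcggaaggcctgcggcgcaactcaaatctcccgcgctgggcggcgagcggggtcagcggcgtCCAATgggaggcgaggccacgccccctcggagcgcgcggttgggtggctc
Cdt1, chr8:122567865-122568014, plus strand: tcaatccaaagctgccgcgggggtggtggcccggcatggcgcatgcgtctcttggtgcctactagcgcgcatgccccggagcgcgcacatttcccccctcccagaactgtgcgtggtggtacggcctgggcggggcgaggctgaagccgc
Mcm2, chr6:88898781-88898930, minus strand: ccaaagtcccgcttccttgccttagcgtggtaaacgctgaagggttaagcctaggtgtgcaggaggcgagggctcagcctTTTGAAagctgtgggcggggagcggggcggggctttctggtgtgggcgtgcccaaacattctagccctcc
Mcm3, chr1:20820313-20820462, minus strand: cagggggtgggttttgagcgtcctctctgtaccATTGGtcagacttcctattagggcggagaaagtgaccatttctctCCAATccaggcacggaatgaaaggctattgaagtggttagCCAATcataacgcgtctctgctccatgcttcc
Mcm5, chr8:75109359-75109508, plus strand: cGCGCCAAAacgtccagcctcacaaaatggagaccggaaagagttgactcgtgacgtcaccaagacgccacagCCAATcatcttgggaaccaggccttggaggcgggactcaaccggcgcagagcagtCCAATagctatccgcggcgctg
Cdk1, chr10:69352913-69353062, minus strand: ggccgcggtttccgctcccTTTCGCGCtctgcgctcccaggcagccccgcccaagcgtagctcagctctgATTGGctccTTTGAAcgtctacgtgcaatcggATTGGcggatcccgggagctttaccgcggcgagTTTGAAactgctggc
Cdc20, chr4:118437344-118437493, minus strand: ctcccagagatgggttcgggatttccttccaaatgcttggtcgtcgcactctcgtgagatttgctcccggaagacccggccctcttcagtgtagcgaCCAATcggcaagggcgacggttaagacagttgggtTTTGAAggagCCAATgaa
Ube2c, chr2:164769779-164769928, plus strand: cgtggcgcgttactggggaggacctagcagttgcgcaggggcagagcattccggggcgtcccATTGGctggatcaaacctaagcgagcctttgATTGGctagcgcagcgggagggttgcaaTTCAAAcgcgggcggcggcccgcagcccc
Plk1, chr7:122159285-122159434, plus strand: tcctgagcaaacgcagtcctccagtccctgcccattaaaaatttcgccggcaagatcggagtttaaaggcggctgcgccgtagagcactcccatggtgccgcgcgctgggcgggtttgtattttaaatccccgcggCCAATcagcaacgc
In Mcm6, E2F letters begin at -110 and -106 from the start, where they overlap on opposite strands, and again at -47. Rrm2 has a single CCAAT match and no E2F match in its window. In Cdt1 the E2F match begins at 33 after the start, outside the stretch printed. Cdk1 holds all kinds of match, and Cdc20 and Ube2c hold CCAAT and CHR matches only. Mcm2 runs against the counts, with CHR and no E2F letters, and Mcm3 has its E2F letters and Plk1 its CHR letters after the start, outside the stretch.

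Most of the 39 genes were at similar levels in cKO and Ctrl cords. After FPKM was summed over the transcripts of each gene, 34 genes had a mean of at least 1 FPKM and entered the limma test, which was run over all 12913 gene sums past that filter. Of these 34, 3 rose in cKO cords (8.82%) at an adjusted p under 0.05, where 4.13% of all gene sums rose, and 0 fell, where 6.54% of all gene sums fell. The genes that rose were Mcm6, Rrm2 and Cdt1, all of the S phase group. None of the 34 was lower even at an unadjusted p under 0.05, and no other gene of the 34 was higher at that level. The 5 genes under the filter were Cdc6, Tyms, Bub1, Cenpe and Cenpf, each at most 1.02 FPKM in any library. Mean levels ran from 0.412 FPKM for Cdc6 to 54.6 FPKM for Cdk4, and coverage summed over the transcripts of a gene ran from 0.288 to 111 reads deep per base, so the lowest genes rest on few reads.

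**Figure D1:**
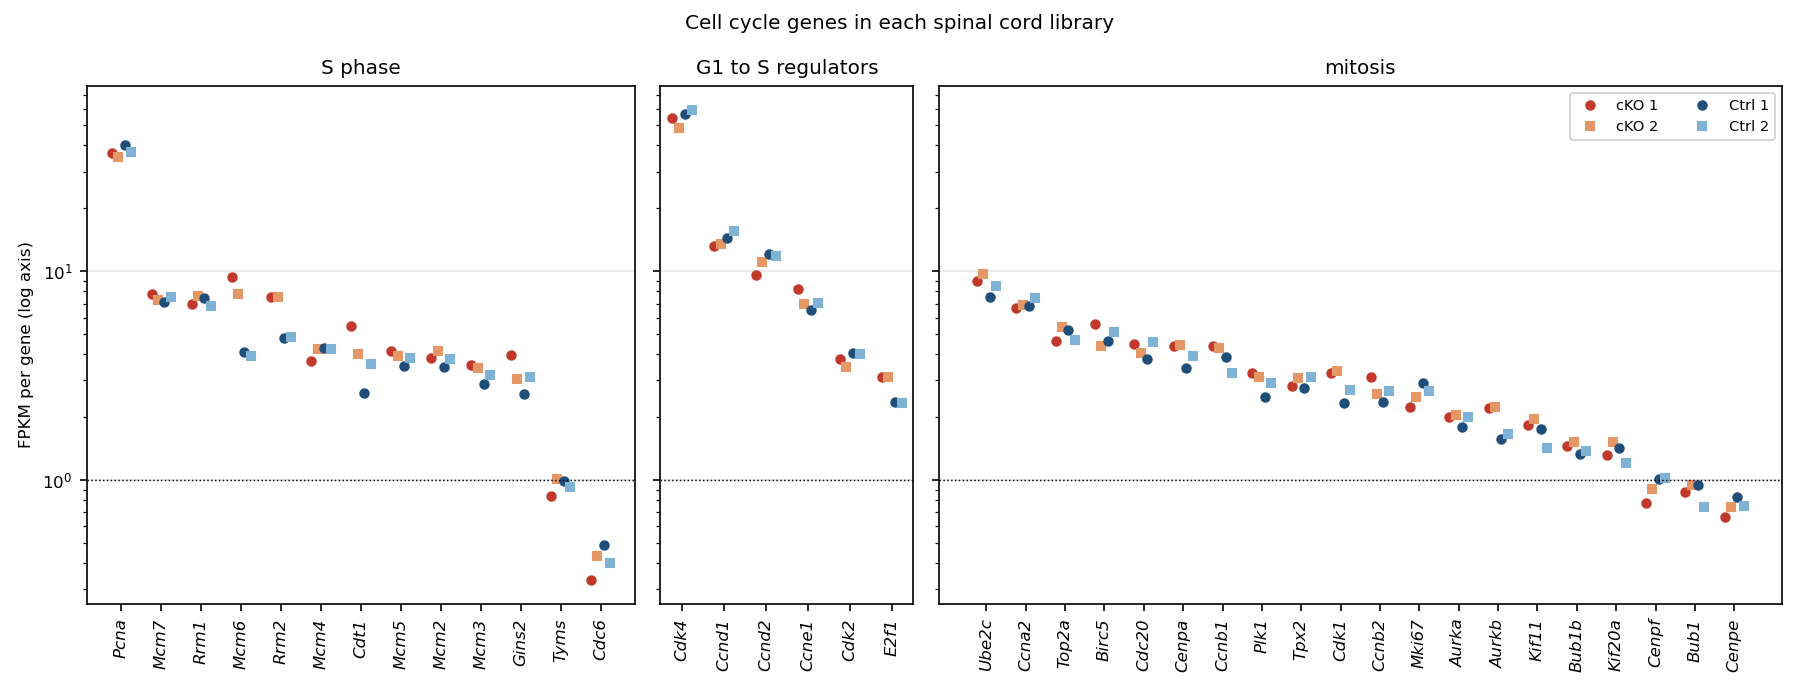
FPKM of each of the 39 genes (log axis) in cKO 1, cKO 2, Ctrl 1 and Ctrl 2, by role and in falling order of mean level; each point is 1 library and the dotted line is the 1 FPKM of the filter on means. Mcm6 and Rrm2 show the cKO points well above the Ctrl points, Cdt1 shows them above with a wide spread, and most other genes have all 4 points close together.

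The interval of each difference shows what these libraries could leave undetected. On the scale of log2(FPKM + 1), standard errors of the 34 differences ran from 0.15 to 0.17, since the spread is pooled largely over all genes. The 95% interval lay within a 2-fold change in either direction for 33 of the 34, all but Mcm6, and within a 1.5-fold change for 28. The added 1 FPKM understates the change of genes at a few FPKM, which most of these are. Signs leaned to one side, a lean that was not tested. Of the 34 differences, 26 were above 0 (76.5%, against 49.5% of all gene sums), among them the 3 that passed. The median was 0.09 on the log2 scale, against -0.0028 for all gene sums. In 16 of 34 genes both cKO libraries lay above both Ctrl libraries (47.1%, against 24.3% of all gene sums), and in 6 both lay below (17.6%, against 29.3%).

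**Figure D2:**
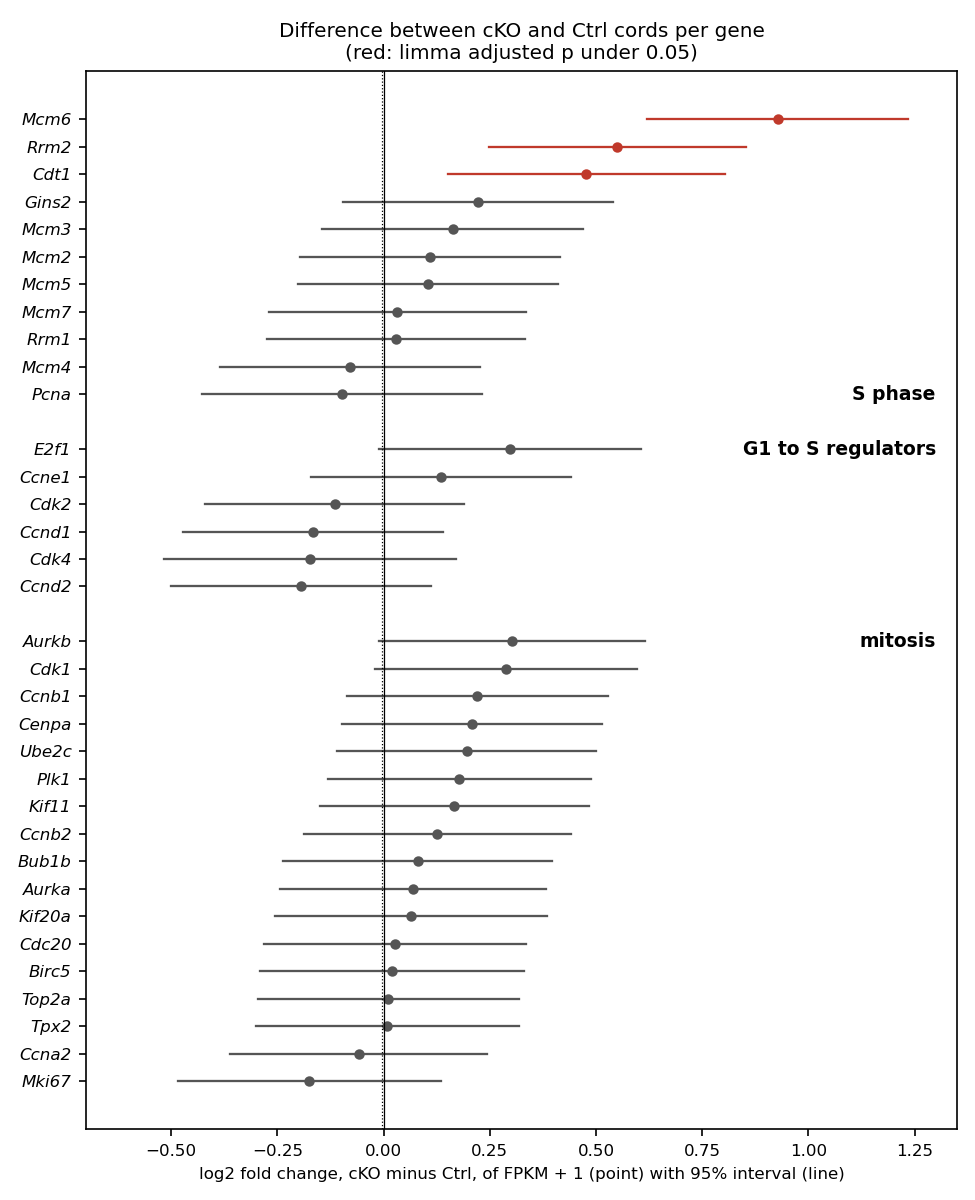
Difference between cKO and Ctrl cords on the log2(FPKM + 1) scale for the 34 genes tested, with 95% intervals from limma, grouped by role; red marks an adjusted p under 0.05 and the dotted line is the median of all gene sums. Mcm6, Rrm2 and Cdt1 are the red points at 0.93, 0.55 and 0.48, and every other interval crosses 0.

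Among S phase genes, Mcm6 had the largest difference. Mcm6 encodes a subunit of the ring of Mcm2 to Mcm7 that unwinds DNA at the replication fork. It lies on chromosome 1, 130228168 to 130256233 on mm9, has 1 transcript in the tables and overlaps no other gene there. It was at 9.33 and 7.75 FPKM in cKO 1 and cKO 2, against 4.08 and 3.92 FPKM in Ctrl 1 and Ctrl 2. The lowest cKO library was thus well above the highest Ctrl library. Means were 8.54 ± 1.12 FPKM in cKO and 4.00 ± 0.114 FPKM in Ctrl (SD, n = 2 each), a ratio of 2.14 on the FPKM scale and a log2 fold change of 0.93 ± 0.15 (SE, limma adjusted p = 3.79e-05). The call held without each of the 4 libraries in turn, with log2 fold changes of 0.81 to 1.05. It was lost with no filter on low values (limma adjusted p = 0.268), where 1 gene sum passed in all, and when transcripts under 300 bases were summed in (adjusted p = 0.0633), where 53 passed.

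The other subunits of the same ring did not pass. Mcm2 was at 3.84 and 4.15 FPKM in the cKO libraries, against 3.48 and 3.78 FPKM in the Ctrl libraries. Mcm3 was at 3.57 and 3.45 FPKM in cKO, against 2.89 and 3.18 FPKM in Ctrl. Mcm5 was at 4.13 and 3.93 FPKM in cKO, against 3.50 and 3.85 FPKM in Ctrl. In each of these genes both cKO libraries were above both Ctrl libraries by a small margin. Mcm4 was at 3.73 and 4.25 FPKM in cKO, against 4.29 and 4.23 FPKM in Ctrl, and Mcm7 at 7.76 and 7.27 FPKM in cKO, against 7.12 and 7.52 FPKM in Ctrl. Both of these overlapped between the groups. The log2 fold changes of these 5 subunits ran from -0.08 to 0.16, with adjusted p from 0.559 to 0.924 (limma), and the upper ends of their 95% intervals lay between 0.23 and 0.47, below the lower end for Mcm6 at 0.62. As a share of the summed FPKM of the 6 subunits, Mcm6 made up 28.8% and 25.2% in cKO 1 and cKO 2, against 16.1% and 14.8% in Ctrl 1 and Ctrl 2. The sum of the other 5 was 23.0 FPKM in both cKO libraries, against 21.3 and 22.6 FPKM in the Ctrl libraries. The difference between Mcm6 and the other subunits was not itself tested. The Mcm7 locus overlaps the microRNA genes Mir106b, Mir25 and Mir93, and Mcm3, Mcm5 and Mcm7 hold E2F letters in their windows as Mcm6 does.

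**Figure D3:**
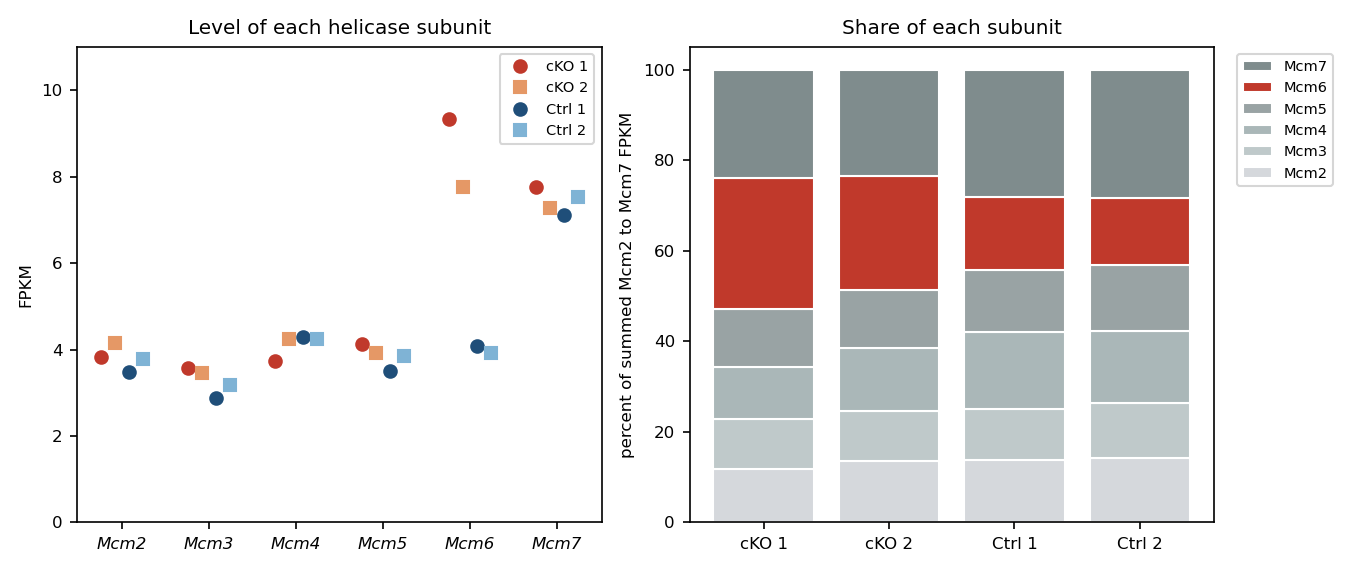
Left, FPKM of the 6 helicase subunits in each library (axis from 0); right, the percent of their summed FPKM that each subunit makes up in cKO 1, cKO 2, Ctrl 1 and Ctrl 2. Mcm6 sits at 9.33 and 7.75 FPKM in cKO against 4.08 and 3.92 FPKM in Ctrl and takes 28.8% and 25.2% of the cKO sum against 16.1% and 14.8% of the Ctrl sum, while the other subunits keep close levels.

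Rrm2 encodes the small subunit of ribonucleotide reductase, the enzyme that makes deoxynucleotides, and its own level follows S phase. It lies on chromosome 12, 25393119 to 25399011 on mm9. It was at 7.55 FPKM in both cKO 1 and cKO 2, against 4.80 and 4.86 FPKM in Ctrl 1 and Ctrl 2. The groups did not overlap. Means were 7.55 ± 0.000127 FPKM in cKO and 4.83 ± 0.0427 FPKM in Ctrl (SD, n = 2 each). An SD of 2 close values measures the spread poorly, and the test used a spread pooled largely over all genes. The ratio of means was 1.56 and the log2 fold change 0.55 ± 0.15 (SE, limma adjusted p = 0.0115). The call was lost without cKO 1 (adjusted p = 0.152) and without cKO 2 (adjusted p = 0.0669), at the same fold change of 0.55, and held without Ctrl 1 (adjusted p = 0.029) and without Ctrl 2 (adjusted p = 0.0226). It was also lost under TPM scaling (adjusted p = 0.0677) and without a filter (adjusted p = 0.268), and held in 9 of 15 alternative settings. Rrm1, the large subunit of the same enzyme, was at 6.99 and 7.59 FPKM in cKO, against 7.45 and 6.79 FPKM in Ctrl (log2 fold change 0.03 ± 0.15, adjusted p = 0.932). Its groups overlapped.

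Cdt1 encodes a licensing factor that loads the helicase ring onto origins with Cdc6. It lies on chromosome 8, 125091915 to 125097030 on mm9. It was at 5.46 and 3.99 FPKM in cKO 1 and cKO 2, against 2.62 and 3.61 FPKM in Ctrl 1 and Ctrl 2. Both cKO libraries were above both Ctrl libraries, but cKO 2 and Ctrl 2 were close. Means were 4.73 ± 1.04 FPKM in cKO and 3.11 ± 0.700 FPKM in Ctrl (SD, n = 2 each). The ratio of means was 1.52 and the log2 fold change 0.48 ± 0.16 (SE, limma adjusted p = 0.0494). The call held in 3 of 15 alternative settings and was lost without cKO 1 (log2 fold change 0.29, adjusted p = 0.725) and without Ctrl 1 (0.30, adjusted p = 0.331). Adjusted p over the 15 settings ran from 0.00451 to 0.725. Cdc6, its partner in licensing, was at 0.331 and 0.430 FPKM in cKO, against 0.486 and 0.402 FPKM in Ctrl, and was below the filter.

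The remaining S phase genes did not pass. Pcna, the sliding clamp of DNA polymerases, was the most abundant of them at 36.9 and 35.4 FPKM in cKO, against 40.2 and 37.2 FPKM in Ctrl. Both cKO libraries were slightly below both Ctrl libraries (log2 fold change -0.10 ± 0.16, limma adjusted p = 0.772). Gins2, part of the GINS complex of the active helicase, was at 3.98 and 3.04 FPKM in cKO, against 2.57 and 3.13 FPKM in Ctrl (adjusted p = 0.413), and its locus overlaps Gse1. Tyms, thymidylate synthase, was at 0.834 and 1.01 FPKM in cKO, against 0.985 and 0.928 FPKM in Ctrl, below the filter. Of the 11 S phase genes tested, 9 had a difference above 0 (81.8%, against 49.5% of all gene sums). Of the 11, 3 rose (27.3%, against 4.13%), and the median was 0.11 on the log2 scale. The genes were chosen with earlier results of these data known, so these shares only describe the list.

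No gene of mitosis passed the test. Of 17 tested, 0 rose in limma (0%, against 4.13% of all gene sums) and 0 fell (0%, against 6.54%). None had an unadjusted p under 0.05. Their median log2 fold change was 0.08, with 15 differences above 0 (88.2%, against 49.5% of all gene sums), and in 9 genes both cKO libraries lay above both Ctrl libraries (52.9%, against 24.3%). Aurkb, the kinase of the chromosomal passenger complex, had the largest difference of the group. It was at 2.21 and 2.24 FPKM in cKO 1 and cKO 2, against 1.58 and 1.66 FPKM in Ctrl 1 and Ctrl 2 (log2 fold change 0.30 ± 0.15 SE, adjusted p = 0.226). Birc5, survivin, a partner of Aurkb in that complex, was at 5.58 and 4.37 FPKM in cKO, against 4.61 and 5.13 FPKM in Ctrl. Here the groups overlapped (adjusted p = 0.959).

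Cdk1, the kinase that starts mitosis, was at 3.27 and 3.33 FPKM in cKO, against 2.35 and 2.70 FPKM in Ctrl (log2 fold change 0.29 ± 0.15 SE, limma adjusted p = 0.245). Whether its cyclins differed among themselves was not tested. Ccnb1, cyclin B1, was at 4.36 and 4.27 FPKM in cKO, against 3.89 and 3.26 FPKM in Ctrl, with no overlap. Ccnb2, cyclin B2, was at 3.12 and 2.57 FPKM in cKO, against 2.36 and 2.68 FPKM in Ctrl, with overlap. Ccna2, cyclin A2, which acts in S phase and G2, was at 6.68 and 6.88 FPKM in cKO, against 6.81 and 7.41 FPKM in Ctrl, and its locus overlaps Exosc9. None of the 3 passed, with adjusted p of 0.399, 0.675 and 0.852 in that order.

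Mki67, whose protein Ki-67 is used to mark dividing cells, and Top2a, the topoisomerase that untangles replicated chromosomes, did not pass either. Mki67 was at 2.23 and 2.49 FPKM in cKO 1 and cKO 2, against 2.91 and 2.67 FPKM in Ctrl 1 and Ctrl 2. Both cKO libraries were below both Ctrl libraries, by less than the test could call (log2 fold change -0.17, 95% interval -0.48 to 0.14, limma adjusted p = 0.531). Top2a was at 4.62 and 5.42 FPKM in cKO, against 5.24 and 4.68 FPKM in Ctrl, an overlap with a log2 fold change of 0.01 (95% interval -0.30 to 0.32, adjusted p = 0.976). In whole cord, fewer dividing cells and less RNA in each of them cannot be told apart.

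Genes of chromosome separation follow. Plk1, a kinase of spindle assembly, was at 3.27 and 3.12 FPKM in cKO, against 2.51 and 2.92 FPKM in Ctrl. Aurka, a kinase of the spindle poles, was at 2.01 and 2.05 FPKM in cKO, against 1.79 and 2.003 FPKM in Ctrl. Both genes had cKO libraries above Ctrl libraries without passing (adjusted p = 0.519 and 0.832, limma). Tpx2, which activates Aurora A on microtubules, had sums of 2.81 and 3.08 FPKM in cKO, against 2.75 and 3.11 FPKM in Ctrl. Its sums overlapped, but the transcripts within them did not keep their shares. The transcript of 4164 bases was at 0.593 and 0.0308 FPKM in cKO, against 1.54 and 2.75 FPKM in Ctrl, and that of 4161 bases at 0.838 and 2.25 FPKM in cKO, against 2.48e-04 and 5.15e-04 FPKM in Ctrl. How reads were assigned between these transcripts was not tested. With the most abundant transcript alone in place of the sum, Tpx2 had a log2 fold change of -1.27 (adjusted p = 0.0131).

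Kif11, a motor that pushes spindle poles apart, was at 1.84 and 1.96 FPKM in cKO, against 1.76 and 1.42 FPKM in Ctrl. Kif20a, a motor of cytokinesis, was at 1.31 and 1.52 FPKM in cKO, against 1.42 and 1.20 FPKM in Ctrl, and its locus overlaps Brd8 and Cdc23. Neither passed (limma adjusted p = 0.564 and 0.847). Cenpa, the histone variant of centromeres, was at 4.36 and 4.42 FPKM in cKO, against 3.42 and 3.92 FPKM in Ctrl (adjusted p = 0.428). The large kinetochore proteins Cenpe and Cenpf were below the filter. Cenpe was at 0.664 and 0.742 FPKM in cKO, against 0.831 and 0.747 FPKM in Ctrl, and Cenpf at 0.773 and 0.905 FPKM in cKO, against 1.01 and 1.02 FPKM in Ctrl. Both had cKO libraries below Ctrl libraries, the opposite order to Cenpa, with no test.

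Of the checkpoint kinases, Bub1b was at 1.46 and 1.51 FPKM in cKO, against 1.33 and 1.37 FPKM in Ctrl (limma adjusted p = 0.805), and Bub1, below the filter, at 0.876 and 0.943 FPKM in cKO, against 0.948 and 0.743 FPKM in Ctrl. Cdc20 and Ube2c act with the anaphase promoting complex, which marks cyclin B for destruction. Ube2c was the most abundant mitosis gene here, at 8.95 and 9.66 FPKM in cKO, against 7.53 and 8.48 FPKM in Ctrl (adjusted p = 0.460). Cdc20 was at 4.48 and 4.05 FPKM in cKO, against 3.79 and 4.56 FPKM in Ctrl (adjusted p = 0.943). The Cdc20 locus overlaps Elovl1, and the sources used here do not say that reads were counted by strand.

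Of the 6 regulators of G1 to S, 0 rose in limma (0%, against 4.13% of all gene sums) and 0 fell (0%, against 6.54%). None had an unadjusted p under 0.05. Differences were above 0 in 2 (33.3%, against 49.5% of all gene sums) and below 0 in 4, and the median log2 fold change was -0.14. In 4 both cKO libraries lay below both Ctrl libraries (66.7%, against 29.3% of all gene sums). Cdk4, the most abundant of the 39 genes, was at 54.0 and 48.6 FPKM in cKO 1 and cKO 2, against 56.3 and 59.5 FPKM in Ctrl 1 and Ctrl 2 (adjusted p = 0.585). Ccnd1, cyclin D1, was at 13.2 and 13.4 FPKM in cKO, against 14.5 and 15.6 FPKM in Ctrl (adjusted p = 0.550). Ccnd2, cyclin D2, was at 9.58 and 11.1 FPKM in cKO, against 12.03 and 11.9 FPKM in Ctrl (adjusted p = 0.469). In these genes and in Cdk2, at 3.81 and 3.49 FPKM in cKO against 4.05 and 4.02 FPKM in Ctrl, both cKO libraries lay below both Ctrl libraries. Within Cdk2, the transcript of 2288 bases was at 1.80 and 1.57 FPKM in cKO, against 2.67 and 2.31 FPKM in Ctrl. That of 2432 bases ran in the opposite direction, at 2.01 and 1.92 FPKM in cKO, against 1.37 and 1.71 FPKM in Ctrl. With the more abundant transcript, of 2288 bases, in place of the sum, Cdk2 did not pass (log2 fold change -0.38, limma adjusted p = 0.205). The transcript of 2432 bases was not tested. Ccne1, cyclin E1, overlapped between groups at 8.25 and 6.95 FPKM in cKO, against 6.54 and 7.07 FPKM in Ctrl. E2f1, a transcription factor that drives replication genes, ran the other way at 3.13 and 3.12 FPKM in cKO, against 2.36 and 2.34 FPKM in Ctrl. Its libraries were close within each group and separate between groups, but 2 libraries per group measure the spread poorly. With the spread pooled largely over all genes, E2f1 did not pass (log2 fold change 0.30, 95% interval -0.01 to 0.61, limma adjusted p = 0.226).

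Set side by side, the S phase and mitosis medians were close. In S phase genes the median deviation from the Ctrl mean was 0.13 and 0.08 on the log2 scale in cKO 1 and cKO 2, against -0.03 and 0.03 in Ctrl 1 and Ctrl 2. In mitosis genes it was 0.14 and 0.11 in cKO 1 and cKO 2, against -0.05 and 0.05 in Ctrl 1 and Ctrl 2. G1 regulators were at -0.08 and -0.12 in the cKO libraries, against -0.02 and 0.02 in the Ctrl libraries. Thus 3 of 11 S phase genes (27.3%) and 0 of 17 mitosis genes (0%) rose, against 4.13% of all gene sums. The medians of the 2 groups, 0.11 and 0.08, differed by less than the spread between libraries. The difference between the roles was not tested.

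**Figure D4:**
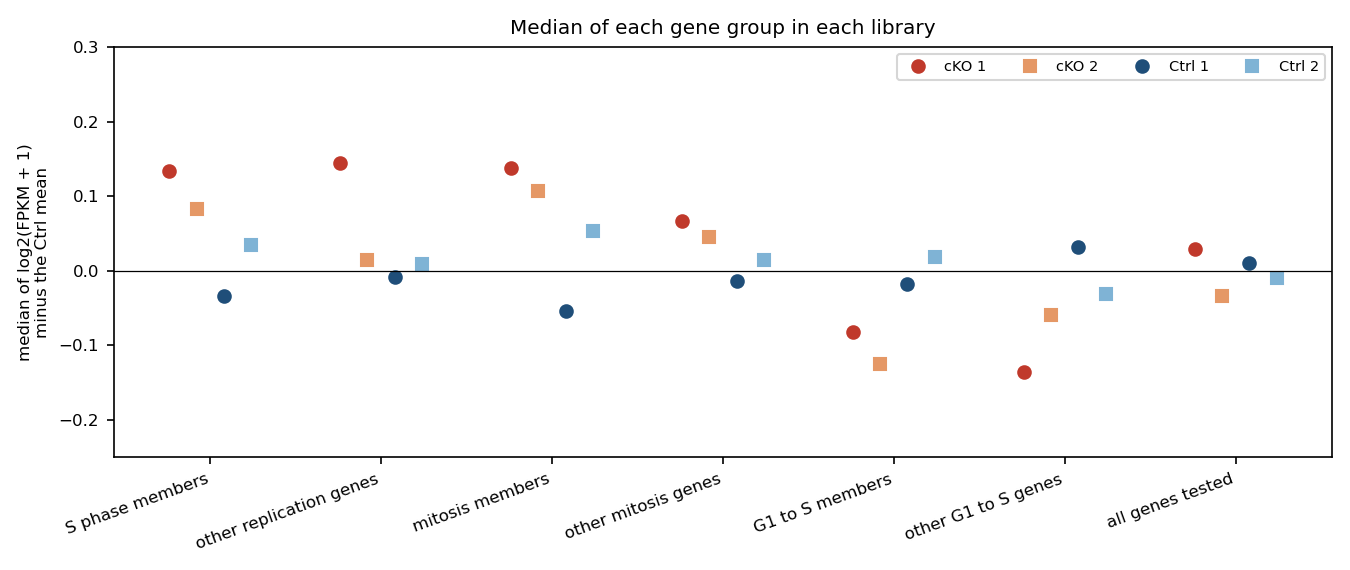
Median, over the tested genes of each group, of log2(FPKM + 1) minus the mean of the Ctrl libraries, with 1 point per library; cKO points are red and orange, Ctrl points dark and light blue. S phase and mitosis members sit at 0.08 to 0.14 in both cKO libraries, G1 to S members at -0.08 and -0.12, and the median of all genes tested stays within 0.04 of 0.

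Other genes of the same processes were listed beside the 39. Of 44 further replication genes, 40 were tested, 1 rose (2.5%, against 4.13% of all gene sums) and 1 fell (2.5%, against 6.54%). Their median log2 fold change was 0.08. The median deviation from the Ctrl mean was 0.14 in cKO 1 but 0.014 in cKO 2, against -0.0086 and 0.0086 in Ctrl 1 and Ctrl 2. Lig1, the ligase that joins Okazaki fragments, rose to 13.8 and 11.99 FPKM in cKO, against 8.96 and 9.30 FPKM in Ctrl (limma adjusted p = 0.0453), and this call was lost without any 1 of the 4 libraries (adjusted p from 0.0634 to 0.550). Cdc7, the kinase that fires licensed origins by acting on the Mcm ring, fell to 7.20 and 6.25 FPKM in cKO, against 9.62 and 10.6 FPKM in Ctrl (log2 fold change -0.53 ± 0.15 SE, adjusted p = 0.0177). Its call was lost without Ctrl 2, cKO 1 or cKO 2 (adjusted p = 0.0779, 0.0768 and 0.168). Orc2, a subunit of the origin recognition complex, was at 5.67 and 6.65 FPKM in cKO, against 9.58 and 7.90 FPKM in Ctrl, and Gins4 at 7.84 and 7.54 FPKM in cKO, against 10.8 and 10.2 FPKM in Ctrl. Neither passed (adjusted p = 0.0564 and 0.0760), and Orc2 passed without Ctrl 2 (adjusted p = 0.0206).

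Of 58 further mitosis genes, 44 were tested, 3 rose (6.82%, against 4.13% of all gene sums) and 2 fell (4.55%, against 6.54%), with a median of 0.08. These shares are near those of all gene sums. Cdca3, which promotes entry into mitosis, rose to 7.02 and 6.68 FPKM in cKO, against 3.51 and 4.19 FPKM in Ctrl (log2 fold change 0.70 ± 0.15 SE, limma adjusted p = 0.00143). Hjurp, the chaperone that places Cenpa at centromeres, rose to 7.47 and 6.97 FPKM in cKO, against 4.69 and 2.41 FPKM in Ctrl (0.90 ± 0.17, adjusted p = 3.33e-04). Hjurp overlaps other genes, and Ncapg overlaps Lcorl, so their reads may be shared with those genes. The same holds for Lig1, which overlaps 6330408A02Rik. Hmgb2, a chromatin protein of dividing cells, rose to 13.7 and 15.2 FPKM in cKO, against 10.6 and 9.19 FPKM in Ctrl (adjusted p = 0.0245), and was lost without Ctrl 2, cKO 1 or cKO 2 (adjusted p = 0.146, 0.118 and 0.166). Anln, an actin binding protein of the cleavage furrow that is also a scaffold protein of central myelin, fell to 2.78 and 4.86 FPKM in cKO, against 9.29 and 7.47 FPKM in Ctrl (-0.99 ± 0.17, adjusted p = 7.41e-05). Ncapg, a condensin subunit, fell to 1.08 and 1.53 FPKM in cKO, against 2.51 and 2.07 FPKM in Ctrl (adjusted p = 0.0301), and was lost without Ctrl 1 (adjusted p = 0.114) and without cKO 1 (adjusted p = 0.558). Cdca3, Hjurp and Anln held without each library in turn, though the log2 fold change of Hjurp was 0.53 without Ctrl 2 and 1.27 without Ctrl 1, and that of Anln -0.67 without cKO 1.

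Of 17 further G1 to S genes, 13 were tested, none rose and 1 fell (7.69%, against 6.54% of all gene sums), with a median of -0.08. E2f3, an activating E2F factor, fell to 3.23 and 4.08 FPKM in cKO, against 5.87 and 4.93 FPKM in Ctrl (log2 fold change -0.46 ± 0.15 SE, limma adjusted p = 0.0466). The call was lost without Ctrl 1 (adjusted p = 0.215) and without cKO 1 (adjusted p = 0.625). Tfdp2, a partner of E2F factors, was at 2.66 and 3.40 FPKM in cKO, against 4.65 and 4.18 FPKM in Ctrl (adjusted p = 0.0643). Rbl2, a relative of the retinoblastoma protein, was at 5.89 and 6.95 FPKM in cKO, against 8.47 and 7.78 FPKM in Ctrl, and Rb1 at 7.67 and 9.03 FPKM in cKO, against 10.5 and 9.37 FPKM in Ctrl (adjusted p = 0.214 and 0.377). In each of these 4 genes, named for having the smallest p, both cKO libraries lay below both Ctrl libraries. That order held in 6 of the 13 tested (46.2%, against 29.3% of all gene sums). The opposite order, that of E2f1, held in 1 of the 13 (7.69%, against 24.3%). This was E2f2, at 1.26 and 1.07 FPKM in cKO, against 1.04 and 0.881 FPKM in Ctrl.

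Markers of other cell types and of the oligodendrocyte lineage were set beside these values. Of 6 precursor and lineage genes, Olig1 and Olig2 fell (33.3%, against 6.54% of all gene sums), and Pdgfra, the receptor that marks oligodendrocyte precursors, was at 19.7 and 22.6 FPKM in cKO, against 20.1 and 16.05 FPKM in Ctrl (limma adjusted p = 0.425). Cspg4, the NG2 proteoglycan of the same cells, was at 6.15 and 7.40 FPKM in cKO, against 4.95 and 6.05 FPKM in Ctrl (adjusted p = 0.313). Pdgfra overlapped between the groups, and so did the rest of the 6 except Olig1, Olig2 and Cspg4. Of 6 myelin genes, 5 fell (83.3%, against 6.54% of all gene sums), with a summed level of 6409 and 10028 FPKM in cKO, against 15544 and 17756 FPKM in Ctrl. Of 6 microglia genes, 3 fell (50%, against 6.54%), with sums of 49.5 and 46.9 FPKM in cKO, against 59.9 and 64.4 FPKM in Ctrl. Meningeal genes fell in 5 of 6 (83.3%, against 6.54%), with sums of 31.5 and 34.4 FPKM in cKO, against 255 and 54.7 FPKM in Ctrl, and Ctrl 1 was far above the other 3 libraries. None of 6 neuron genes passed in limma. All 6 had differences above 0 (100%, against 49.5% of all gene sums), with a median of 0.29. Of the 6, 2 had an unadjusted p under 0.05, and sums were 1088 and 914 FPKM in cKO, against 778 and 745 FPKM in Ctrl. None of 6 astrocyte genes passed, 2 were lower at an unadjusted p under 0.05, and their sums were 1259.6 and 1654 FPKM in cKO, against 1616 and 1844 FPKM in Ctrl. None of 6 endothelial genes passed, 1 was lower at an unadjusted p under 0.05, and their sums were 84.5 and 61.6 FPKM in cKO, against 76.6 and 80.5 FPKM in Ctrl. The part of these differences in the cell cycle values was not tested. The share of all gene sums at an unadjusted p under 0.05 was not counted, so the marker counts at that level cannot be set against it.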

How the data were processed

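Per the file headers, each deposited table lists RefSeq transcripts with FPKM, fragments scaled by transcript length and library size, and with coverage, a signal of mean read depth per base. The submitters' processing notes name CASAVA, TopHat, Cufflinks, Cuffdiff and mm9, with no versions. The labels' protocols give Trizol extraction and a TruSeq RNA kit. Each library has a table of its own.

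Each table has 28107 rows. Rows were matched between tables by transcript, symbol, locus and length, and 315 rows whose status was not OK in some library were left out. FPKM was summed per symbol over transcripts of at least 300 bases. Sums with a mean of at least 1 FPKM were compared as log2(FPKM + 1) with limma 3.58.1 in R 4.3.3 (genotype only, mean-variance trend, Benjamini-Hochberg adjustment over all 12913, threshold 0.05). No count model was used, since FPKM are not counts. The spread had 36.3 prior and 2 residual degrees of freedom. The fit was run on simulated data with independent normal noise of the fitted spreads. Such data meet its assumptions, so they do not test how those hold here. Scripts ran in Python 3.11.15. The sources used here give no read totals, so only relative depth is known. Coordinates of genes are on mm9 and those of promoters on GRCm38.p6. The genes and lists were chosen with earlier results of these data known. Named are all 39 genes and, of each further list, every gene that passed or the 4 of smallest p. Marker genes other than the most abundant were named for what they mark, with their values seen. A further marker list is not reported here. Alternatives covered pseudocount, filter, scaling, transcript choice, moderation, a replicate block and each library left out.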

Additional observations from a re-analysis of the deposited data

How the results depend on the processing

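In the reported fit 1378 gene sums passed, against 664 under TPM scaling, 736 under quantile scaling, 587 with the most abundant transcript per gene, 53 with all transcripts summed and 1 with no filter, and between 385 and 1454 with 1 library left out. Of the 39 genes, 3 rose in the reported fit, 1 under TPM scaling and with the most abundant transcript, 0 with all transcripts summed or no filter, and 1 to 3 with a library left out, where Mcm6 was the 1 without cKO 1. None fell, except 1 with the most abundant transcript (Tpx2, -1.27). The S phase median was 0.20 under quantile scaling and 0.082 to 0.16 with a library left out. The mitosis median was 0.14 under quantile scaling and 0.079 to 0.14 with a library left out. Differences near 0 changed sign in Mcm4 under quantile scaling (0.0065) and in Top2a, Birc5 and Tpx2 under TPM scaling (-0.013, -0.0063 and -0.013). With a library left out, Mcm7 ran from -0.0087 to 0.074, Rrm1 from -0.029 to 0.089, Top2a from -0.085 to 0.11, Cdc20 from -0.082 to 0.13, Birc5 from -0.13 to 0.16, Kif20a from -0.0048 to 0.13 and Tpx2 from -0.058 to 0.074. Fewer samples are the construction of the left-out fits; the cause of the other shifts was not tested.

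The deviations of same-numbered libraries from their group means correlated at -0.241 over 12913 genes. This gives no sign that the numbers pair the samples, but with 2 libraries per group it cannot settle the question. With a replicate block 996 gene sums passed and 2 of the 39 genes rose. Pairing crossed numbers, chosen after seeing the data, gave 2178 gene sums and 3 of the 39. Depth limits genes near 1 FPKM most in Ctrl 2.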
